A study of Mus musculus with 12 samples.

Results

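The mitochondrial ribosomal protein genes are the nuclear genes whose products build the ribosome of the mitochondrion. Members were taken as the rows of the deposited expression table whose symbol starts with Mrpl or Mrps followed by a digit, and 76 of 21671 rows qualified, 47 of the large subunit (Mrpl) and 29 of the small subunit (Mrps). RNA was sequenced from 3T9 MycER;YAP cells, immortalized mouse embryonic fibroblasts that carry MycER, a Myc protein switched on by 4-hydroxytamoxifen (OHT), and a doxycycline-inducible vector for YAP S127A, an activated form of the Hippo pathway coactivator YAP. There were 4 groups of 3 libraries, namely OHT+dox (400 nM OHT and 2 µg/mL doxycycline), OHT (400 nM OHT), dox (2 µg/mL doxycycline) and mock (neither agent). All groups, mock included, carried both constructs, and the cells were serum-starved and highly confluent. No cells without the YAP vector were analysed here, so that the action of doxycycline itself and that of YAP S127A cannot be told apart in dox or OHT+dox cells. Likewise no cells without MycER were analysed, so that OHT itself and active MycER cannot be told apart in OHT or OHT+dox cells. Nothing in the sources used here states that the libraries of a group came from separate cultures, so that p-values measure only the variation among the libraries sequenced, which may be technical.

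Mitochondrial ribosomes translate the few respiratory chain subunits that mitochondrial DNA encodes, while every protein of these ribosomes is made in the cytosol and imported. Part of the proteins descend from bacterial ribosomal proteins and part exist only in mitochondria. Growth-promoting factors such as Myc are known to raise transcription of genes for ribosomes and for mitochondria, and doxycycline, a tetracycline antibiotic directed at bacterial ribosomes, can inhibit translation in mitochondria. A symbol does not always give the place of the protein, since in solved mammalian structures the products of Mrps30 and Mrps18a lie in the large subunit, and the product of Mrps36 is known as a component of the 2-oxoglutarate dehydrogenase complex. Members were nevertheless grouped by symbol.

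The deposited table gives, for each gene, a mean of normalized counts over 6 libraries for each of 3 treatments with its controls. Whole read counts of the 12 libraries were solved from these 3 means, which was possible with a share of at least 0.99 for 1 solution in 5748 of 12168 genes of mean above 10 and in 64 of the 76 members. All 64 recovered members, 39 of the large and 25 of the small subunit, passed the minimum mean of 10 normalized counts (reads divided by the size factor of the library), and entered a limma fit across 5715 features. A member was called higher or lower at a Benjamini-Hochberg adjusted p under 0.05 over all features tested. Recovery depended on the level, as it succeeded for 95.7% of genes with a mean of 10 to 300 and for none above 700. Between these it was 62.9% for means of 300 to 400, 34.4% for 400 to 500 and 5.05% for 500 to 700. The tested member of highest mean, Mrpl10 (655.2), lay in the last range. The table held on average 8184510 to 8299686 normalized counts per library, the size factors spanned 0.8314 to 1.1582, and the recovered genes carried 768694 to 1119905 reads per library. Libraries of a group differed by more than counting error (chi-square per degree of freedom between 1.21 and 2.84), except that libraries 1 and 2 of the dox group came close to it (1.04, chi-square p = 0.0271). Library numbers only name the recovered libraries and are not the replicate numbers of the labels. Of 10 fibroblast markers, 9 had a mean of at least 10, led by Col1a2, whereas Thy1 was at 0.4445, and none of the epithelial, endothelial, skeletal muscle or adipocyte markers listed reached 10. Among 5 macrophage and leukocyte markers only Cd68 did (39.9), and the summed level of that list was 47.55 in the column of OHT+dox, 48.7 in that of OHT and 45.3 in that of dox.

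Combined activation of MycER and induction of YAP S127A was compared with mock to see how the genes of the mitochondrial ribosome responded. In OHT+dox cells 50 of the 64 tested members were higher than in mock cells and none was lower, while 21.3% of all features tested were called higher and 23.2% lower. By subunit, 31 of 39 large subunit genes and 19 of 25 small subunit genes rose. The median log2 fold change was 0.38 over the members, against -0.04 over all features, and corresponds to a 1.3-fold level. Estimates ranged from -0.03 to 1.21, so that most of the rises were modest, and only 15 of the called members exceeded 0.5 on the log2 scale. Of all 5715 features, 1581 were called past 0.5 in either direction. In 55 members all 3 OHT+dox libraries lay above all 3 mock libraries, which was so for 25.9% of all features. The tested members had means of at least 78.4 and a median standard error of 0.09, against 0.14 over all features, and smaller errors make calls easier. With features limited to a mean of at least 50, 51 of the 64 members were higher in OHT+dox, against 1098 of 4093 features. In OHT 35 members and 813 features were then higher than in mock, and in dox 11 members and 295 features.

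**Figure D1:**
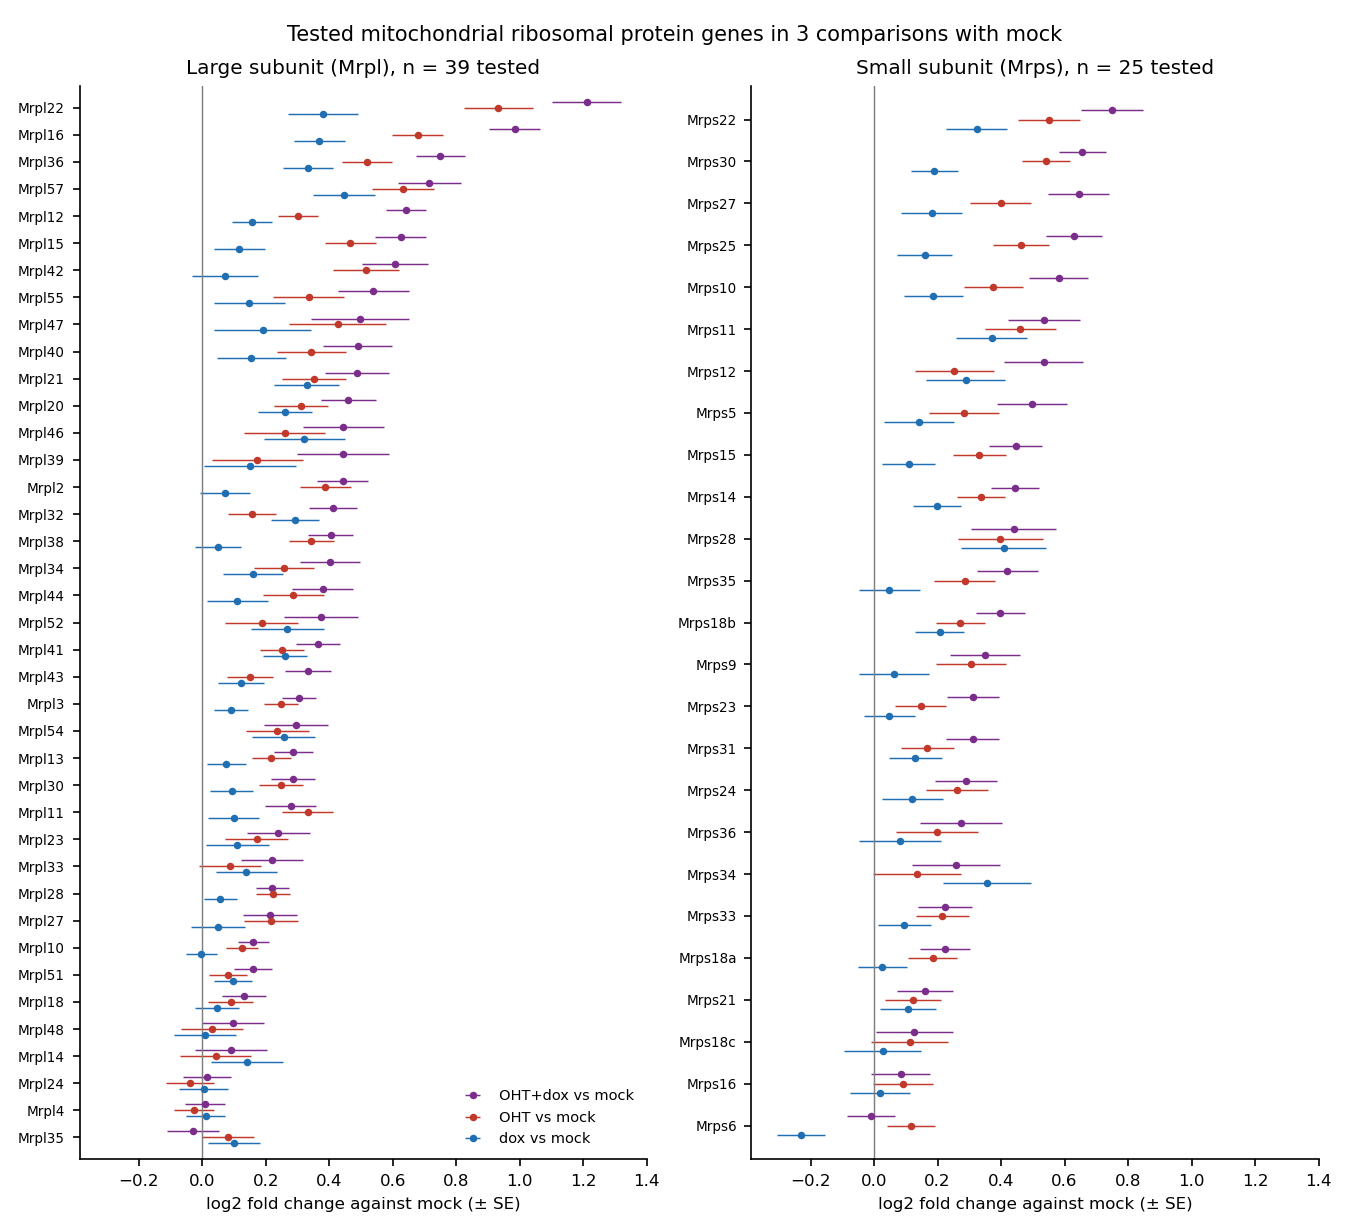
Log2 fold change against mock (x axis, ± SE) of the 64 tested members (y axis), 39 of the large subunit on the left and 25 of the small subunit on the right, with OHT+dox in purple, OHT in red and dox in blue (3 libraries per group). Nearly all points lie to the right of 0, and the OHT+dox points lead from Mrpl22 (1.21) to Mrpl35 (-0.03).

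The largest rise in the large subunit was that of Mrpl22, a homolog of the bacterial protein that lines the exit tunnel for the nascent chain. It had 300.4, 335.8 and 281.0 normalized counts in the OHT+dox libraries and 132.7, 124.4 and 137.5 in the mock libraries. The groups did not overlap, and the log2 fold change was 1.21 ± 0.11 (SE, adjusted p = 1.12e-08). Mrpl22 was also higher in OHT cells (240.6, 293.3 and 224.6; log2 fold change 0.93, adjusted p = 1.3e-06) and in dox cells (169.4, 176.8 and 167.3; 0.38, adjusted p = 0.0258) than in mock cells. Each treated library of Mrpl22 exceeded every mock library.

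Mrpl16, a homolog of a bacterial protein near the peptidyl transferase centre, came next with 487.5, 516.5 and 425.5 normalized counts in OHT+dox libraries and 242.3, 233.9 and 243.7 in mock libraries (log2 fold change 0.98 ± 0.08 SE, adjusted p = 2.94e-09). Its OHT libraries (395.3, 402.7 and 356.1) and dox libraries (320.9, 285.4 and 325.3) lay between, with log2 fold changes over mock of 0.68 (adjusted p = 1.59e-06) and 0.37 (adjusted p = 0.00466). The 4 groups of Mrpl16 were thus ordered without overlap. Mrpl36, a homolog of a small zinc-binding bacterial protein, had 550.6, 583.6 and 479.7 normalized counts in OHT+dox libraries and 307.6, 321.8 and 326.7 in mock libraries, a log2 fold change of 0.75 ± 0.08 (SE, adjusted p = 1.15e-07). It was higher in OHT cells by 0.52 (adjusted p = 3.56e-05) and in dox cells by 0.33 (adjusted p = 0.00824) on the same scale.

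Mrpl57, a mitochondrion-specific protein, had 329.3, 404.9 and 326.1 normalized counts in OHT+dox libraries, 324.0, 382.7 and 295.2 in OHT libraries, 272.6, 299.3 and 304.5 in dox libraries and 207.5, 208.3 and 227.1 in mock libraries. Its OHT libraries overlapped those of OHT+dox and of dox, the OHT+dox libraries lay above the dox libraries (log2 difference 0.27, adjusted p = 0.0471), and every treated library lay above mock, with a log2 fold change of 0.72 in OHT+dox (adjusted p = 4.35e-06), 0.63 in OHT (adjusted p = 5.19e-05) and 0.45 in dox cells (adjusted p = 0.00539). The change in dox cells was the largest called among the members there. Mrpl12, whose bacterial homolog forms the stalk that recruits translation factors, had 517.5, 539.2 and 543.9 normalized counts in OHT+dox libraries and 336.0, 336.6 and 352.6 in mock libraries (log2 fold change 0.64 ± 0.06 SE, adjusted p = 3.8e-08). In OHT libraries Mrpl12 stood at 452.1, 427.0 and 386.5 (log2 fold change over mock 0.30, adjusted p = 0.000974) and in dox libraries at 381.4, 381.3 and 379.4 (0.16, adjusted p = 0.101). For Mrpl12 the 3 OHT+dox libraries were therefore above all others.

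In the small subunit, Mrps22, a mitochondrion-specific protein in which human mutations are known to disturb mitochondrial function, had 321.8, 324.9 and 300 normalized counts in OHT+dox libraries and 195.9, 184.6 and 181.8 in mock libraries (log2 fold change 0.75 ± 0.10 SE, adjusted p = 1.91e-06). It was called in OHT cells (0.55, adjusted p = 0.00019) and in dox cells (0.32, adjusted p = 0.0327) as well. Mrps27, a pentatricopeptide repeat protein of the small subunit, had 316.5, 306.1 and 266.9 normalized counts in OHT+dox libraries and 198.0, 178.7 and 191.1 in mock libraries, a log2 fold change of 0.64 ± 0.10 (SE, adjusted p = 1.13e-05). Mrps30, the large subunit protein named as a small subunit one, had 508.9, 568.8 and 463.6 in OHT+dox libraries and 330.8, 320.8 and 323.0 in mock libraries (0.66 ± 0.07 SE, adjusted p = 3.93e-07). For each of these 3 genes the OHT+dox and mock libraries did not overlap. In the annotation used, 22.55% of the exonic bases of Mrps27 and 18.1% of those of Mrps30 are shared with a gene on the opposite strand, and 15.2% of those of Mrpl12. The library kit does not mark strand, and how reads on shared bases were counted was not established here. Whether reads of such partners entered these counts is therefore not known. Over all members, 24 share exonic bases with another annotated gene, and of the 19 of these that were tested 13 rose in OHT+dox cells (median 0.29), against 37 of 45 without shared bases (median 0.40).

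**Figure D2:**
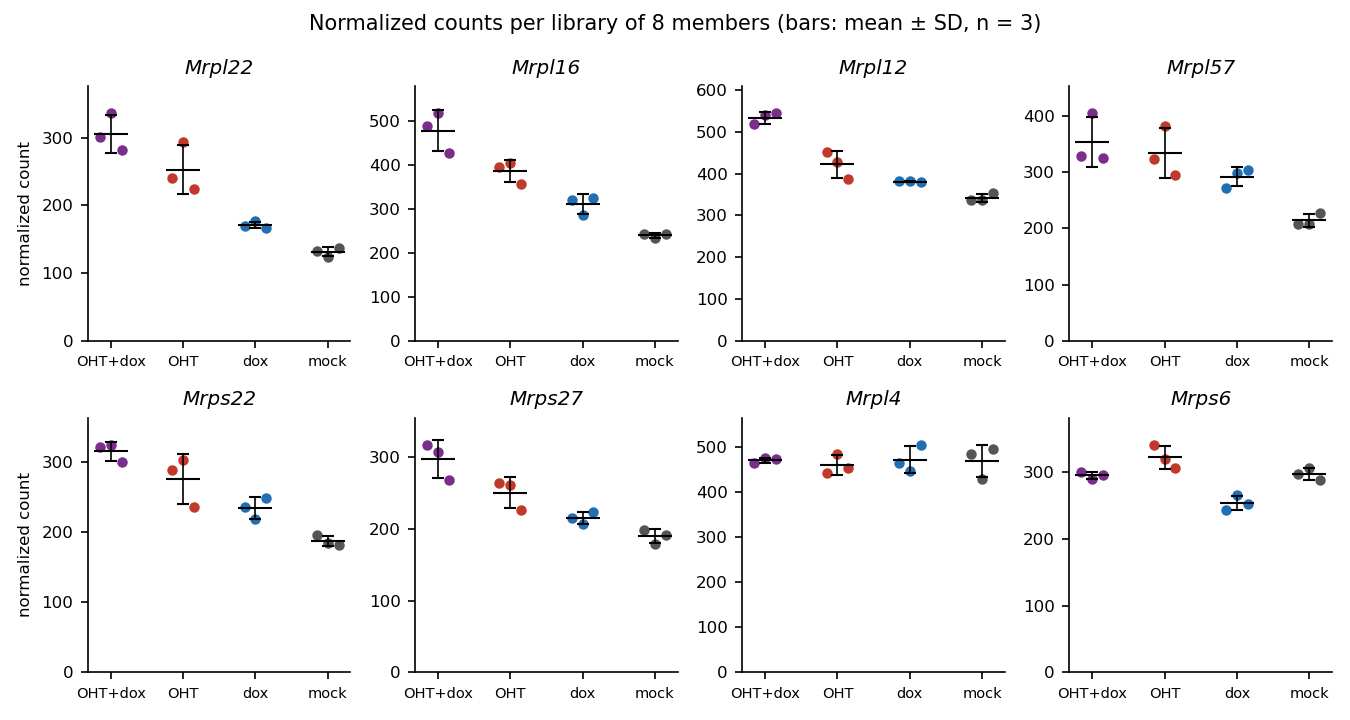
Normalized count (y axis, from 0) in each of the 3 libraries of OHT+dox, OHT, dox and mock cells (x axis) for 8 members, with bars for mean ± SD. Mrpl22 runs from 281.0 to 335.8 in OHT+dox libraries and from 124.4 to 137.5 in mock libraries, whereas Mrpl4 overlaps between all groups and Mrps6 is lowest in the dox libraries.

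A promoter window of 300 bases (250 before to 50 after the annotated start, RefSeq on GRCm38.p6) was available for 67 of the 76 members. These are the windows of the gene with the largest rise (Mrpl22), of a riser with a canonical E-box, the sequence bound by Myc (Mrpl36), of a pair of members with divergent starts (Mrps11, shared with Mrpl46) and of a member that did not pass the test in any comparison with mock (Mrpl35). Letters in capitals mark CACGTG (the E-box, a palindrome) or GGAATG on either strand (a core of sites bound by TEAD factors, the DNA-binding partners of YAP).
Mrpl22 (chr11:58171414-58171713, plus strand): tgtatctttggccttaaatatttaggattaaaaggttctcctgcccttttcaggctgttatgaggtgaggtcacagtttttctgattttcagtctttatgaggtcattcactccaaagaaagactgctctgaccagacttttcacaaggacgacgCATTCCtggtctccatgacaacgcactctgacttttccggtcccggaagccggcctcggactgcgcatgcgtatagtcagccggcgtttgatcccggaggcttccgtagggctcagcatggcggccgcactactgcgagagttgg
Mrpl36 (chr13:73330759-73331058, plus strand): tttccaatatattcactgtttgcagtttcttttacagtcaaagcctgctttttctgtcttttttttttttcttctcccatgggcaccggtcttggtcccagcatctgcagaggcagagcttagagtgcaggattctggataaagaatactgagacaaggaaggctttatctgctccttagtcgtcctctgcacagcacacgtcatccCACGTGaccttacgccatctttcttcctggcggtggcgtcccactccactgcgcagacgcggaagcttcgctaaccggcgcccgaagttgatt
Mrps11 (chr7:78782881-78783180, plus strand): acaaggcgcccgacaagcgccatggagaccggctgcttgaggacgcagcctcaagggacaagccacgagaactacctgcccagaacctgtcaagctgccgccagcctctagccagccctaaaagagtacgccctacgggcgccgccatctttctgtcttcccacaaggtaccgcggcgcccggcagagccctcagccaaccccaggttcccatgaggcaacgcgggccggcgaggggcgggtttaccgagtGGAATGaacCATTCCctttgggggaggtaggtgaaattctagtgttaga
Mrpl35 (chr6:71823735-71824034, minus strand): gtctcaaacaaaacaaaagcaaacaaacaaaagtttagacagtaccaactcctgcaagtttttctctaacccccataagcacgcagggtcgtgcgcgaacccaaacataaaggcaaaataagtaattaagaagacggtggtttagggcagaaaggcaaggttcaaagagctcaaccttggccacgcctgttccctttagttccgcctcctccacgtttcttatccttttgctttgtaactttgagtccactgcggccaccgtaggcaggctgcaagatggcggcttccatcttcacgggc

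The window of Mrpl22 held GGAATG on the opposite strand with its first base at -95 from the start, and that of Mrpl36 an E-box from -43. By gene, 5 of the 67 members held CACGTG in a window (7.46%), namely Mrpl2, Mrpl20, Mrpl36, Mrpl37 and Mrps18c, against 8.11% of all 26742 genes with a promoter and 10.3% of the features tested. GGAATG was held by 8 members (11.9%), against 16.5% of all genes and 14.8% of the features tested. By window, of which some genes have several that overlap, the shares were 7 of 73 for CACGTG (9.59%), where 3 of the 7 are the same E-box of Mrpl2, against 7.17% of all 32544 windows, and 8 of 73 for GGAATG (11%), against 14.6%. Among members called higher in OHT cells 3 of 30 held CACGTG, and among those tested and not called 1 of 26 did. A match is a run of letters, not a site, and no difference between these shares was tested. As a pair chosen after their values were seen, the starts of Mrpl46, of the large subunit, and Mrps11, of the small subunit, lie 42 bases apart, and the GGAATG matches fall inside both windows. In OHT+dox libraries Mrps11 had 199.9, 220.2 and 204.7 normalized counts against 126.4, 137.2 and 170.8 in mock libraries (log2 fold change 0.53 ± 0.11 SE, adjusted p = 0.000539). Mrpl46 had 165.7, 192.6 and 177.6 in OHT+dox libraries against 132.7, 143.1 and 118.1 in mock libraries (0.44 ± 0.13 SE, adjusted p = 0.00669). Both were higher in OHT+dox than in mock libraries without overlap.

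OHT alone, that is activation of MycER in the presence of the drug, was compared with mock in the same fit. In OHT cells 35 of 64 tested members were higher than in mock cells (15.5% of all features) and none was lower (11% of all features). The calls comprised 22 of 39 large and 13 of 25 small subunit genes, and the median log2 fold change was 0.26 over the members against 0.01 over all features. Mrpl22, Mrpl16 and Mrpl57 showed the largest rises. Non-overlapping higher groups were seen for 40 members and 21.8% of all features. Without OHT library 2 the count was 23 members, and that over all features also fell, to 597 higher against 885 with all libraries. Over all features 885 were higher and 630 lower, against 815 and 761 with scaling by the total of recovered reads and 751 and 773 with the upper quartile, where 32 and 25 members were higher.

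Doxycycline alone, that is induction of YAP S127A in the presence of the drug, was compared with mock next. In dox cells 11 members were higher than in mock cells, against 5.28% of all features, and none was lower, against 6.88%. They were 8 large subunit genes (Mrpl16, Mrpl20, Mrpl21, Mrpl22, Mrpl32, Mrpl36, Mrpl41 and Mrpl57) and 3 small subunit genes (Mrps11, Mrps22 and Mrps28). Mrps28, which is related to a bacterial protein that binds the messenger, had 136.3, 135.3 and 140.3 normalized counts in dox libraries and 111.7, 94.8 and 104.3 in mock libraries (log2 fold change 0.41 ± 0.13 SE, adjusted p = 0.0493). The median log2 fold change was 0.13 over the members and -0.05 over all features. Estimates were above 0 for 62 of 64 members and for 42% of all features. In 29 members the dox libraries all lay above the mock libraries, as for 13.9% of all features. The count was small and depended on the settings, being 17 with size factors recomputed on the recovered genes, 7 with voom weights, 5 with dox libraries 1 and 2 counted as 1, and 4 without mock library 1, mock library 2, dox library 1 or dox library 3. It was 6 without dox library 2 and 7 without mock library 3. The number of all features called higher fell too, from 302 to 243 with voom weights. It was 182 with dox libraries 1 and 2 counted as 1. With 1 library left out it ran from 177 (dox library 1) to 213 (dox library 2). The scaling also set the balance over all features, of which 302 were higher and 393 lower in dox cells, against 381 and 309 with scaling by the total of recovered reads, 374 and 263 with the upper quartile and 477 and 241 with recomputed size factors.

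Mrps6 was the member with the lowest estimate in dox cells. It had 243.2, 265.2 and 252.6 normalized counts in dox libraries and 297.0, 306.0 and 288.9 in mock libraries, and these groups did not overlap. The log2 fold change of -0.23 ± 0.08 (SE) missed the threshold (adjusted p = 0.0504), and passed it in 3 alternatives, with adjusted p-values of 0.0417 (mean of at least 50), 0.041 (only the 2 groups compared) and 0.0319 (at most 0.0001 left for other solutions of the reads). In OHT+dox and OHT libraries Mrps6 stood at 300.4, 290.3 and 295.0 and at 340.9, 319.4 and 306.9. Of its exonic bases, 18.8% are shared with Slc5a3, an inositol transporter gene on the same strand, and 36.05% with another annotated gene. Whether reads of these genes entered the counts of Mrps6 is not known.

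**Figure D3:**
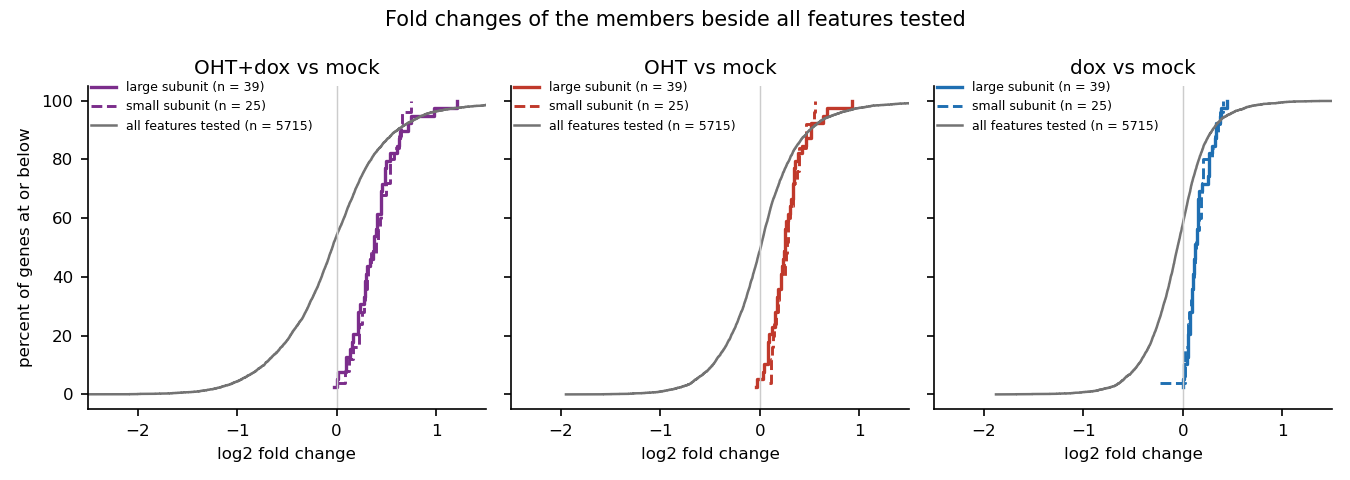
Cumulative percent of genes (y axis) at or below a log2 fold change (x axis) in OHT+dox, OHT and dox cells against mock, for 39 large subunit genes (solid), 25 small subunit genes (dashed) and 5715 features tested (gray). The curves of the subunits lie close to each other and right of the gray curve over most of their height, with medians of 0.37 and 0.40 in OHT+dox, 0.25 and 0.27 in OHT, and 0.12 and 0.13 in dox cells.

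Of the 64 members, 14 were called in none of the comparisons with mock, namely Mrpl4, Mrpl14, Mrpl18, Mrpl23, Mrpl24, Mrpl33, Mrpl35, Mrpl48, Mrps6, Mrps16, Mrps18c, Mrps21, Mrps34 and Mrps36. Mrpl4, whose bacterial homolog reaches into the exit tunnel, had 464.0, 475.0 and 473.6 normalized counts in OHT+dox libraries and 484.5, 428.4 and 494.7 in mock libraries, with a log2 fold change of 0.01 ± 0.06 (SE, adjusted p = 0.929). Mrpl24 had 349.6, 330.8 and 312.1 in OHT+dox libraries and 346.6, 307.0 and 328.6 in mock libraries (0.02 ± 0.08 SE, adjusted p = 0.884), and 38.15% of its exonic bases are shared with Rrnad1 on the opposite strand. Mrpl35 had 312.2, 273.5 and 310.1 in OHT+dox libraries and 279.1, 310.9 and 324.0 in mock libraries (-0.03 ± 0.08 SE, adjusted p = 0.797). For these 3 genes the groups overlapped.

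Among the members of extreme level, Mrpl10, whose bacterial homolog anchors the stalk, had the second highest mean. Its counts were 727.0, 729.8 and 663.3 in OHT+dox libraries and 643.6, 610.0 and 640.5 in mock libraries, a log2 fold change of 0.16 ± 0.05 (SE, adjusted p = 0.0109). Of the lowest members, Mrps34 had 82.3, 91.8 and 82.3 normalized counts in OHT+dox libraries and 70.6, 66.1 and 77.5 in mock libraries (0.26 ± 0.14 SE, adjusted p = 0.135). Mrpl47 had 125.1, 153.1 and 135.5 in OHT+dox libraries and 94.8, 93.8 and 103.4 in mock libraries (0.50 ± 0.15 SE, adjusted p = 0.0109). The standard error of the members ran from 0.05 to 0.15 on the log2 scale and was largest for Mrpl47.

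Large and small subunit genes were compared through the median of each subunit in each library, as the log2 difference from the mean of the mock libraries. The medians of the large subunit were 0.35, 0.43 and 0.28 in the OHT+dox libraries, 0.27, 0.33 and 0.16 in the OHT libraries, 0.11, 0.10 and 0.22 in the dox libraries, and 0.01, -0.04 and 0.03 in the mock libraries. Those of the small subunit were 0.33, 0.49 and 0.30 in OHT+dox, 0.28, 0.37 and 0.15 in OHT, 0.08, 0.13 and 0.22 in dox, and 0.00, -0.05 and 0.02 in mock libraries. The order of the 3 libraries was the same in both subunits within OHT+dox, OHT and mock cells, but not within dox cells. The difference of large minus small averaged -0.019 ± 0.037 in OHT+dox, -0.012 ± 0.024 in OHT, -0.003 ± 0.029 in dox and 0.011 ± 0.006 in mock libraries (SD, n = 3 each), so that the subunits differed by less than the spread between libraries in every treated group. The medians over all 5715 features stayed between -0.06 and 0.03 in the 12 libraries.

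**Figure D4:**
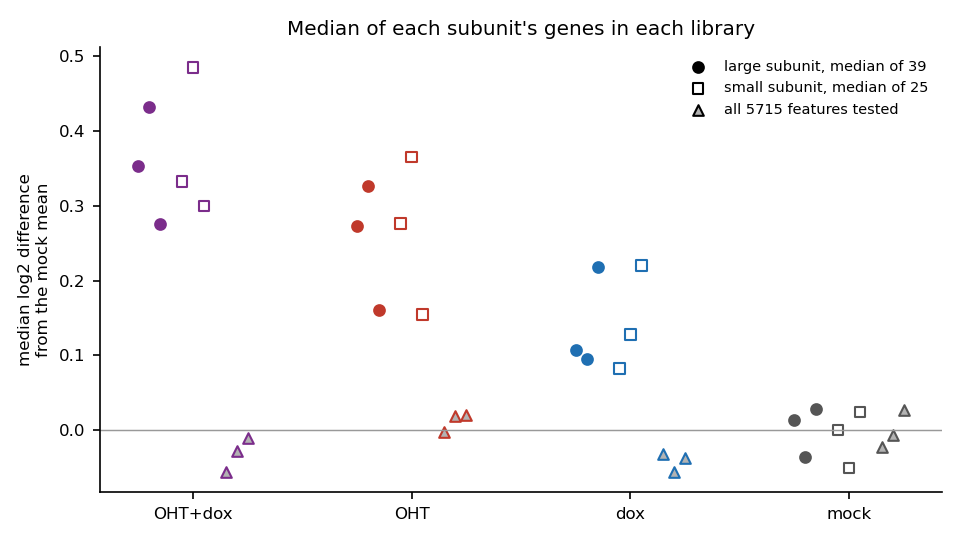
Median log2 difference from the mock mean (y axis) in each of the 12 libraries by group (x axis), for the 39 large subunit genes (filled circles), the 25 small subunit genes (open squares) and all 5715 features tested (triangles). The medians of both subunits reach 0.28 to 0.49 in OHT+dox libraries and stay between -0.05 and 0.03 in mock libraries.

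The members were also split by descent. Of 40 tested homologs of bacterial proteins, 29 were higher in OHT+dox than in mock cells (median log2 fold change 0.33), and of 23 tested mitochondrion-specific ones, 20 were (0.38). In OHT cells the calls were 23 of 40 and 11 of 23, and in dox cells 8 of 40 and 3 of 23. Over all features the shares called higher were 21.3% in OHT+dox, 15.5% in OHT and 5.28% in dox cells. Mrpl55 was left out of this split. No test of this split was run. Per kilobase of exon, the level in mock cells had a median of 216.3 normalized counts over the large and 149.5 over the small subunit genes, and it spanned 28.9 (Mrpl47) to 403.3 (Mrpl34) in the large and 46.6 (Mrps5) to 445.2 (Mrps21) in the small subunit. Across the 64 members, which share libraries and depth, the log2 fold change in OHT+dox correlated weakly with the log2 count in mock (Pearson r = -0.24, Spearman rho = -0.24) and hardly with the log2 exonic length (0.05 and 0.11). The mock libraries enter both the fold change and the mock count, which can by itself make that correlation negative, so that no conclusion is drawn from it.

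To ask what each agent added to the other, treated groups were compared directly. Between OHT+dox and OHT cells 3 of 64 members were higher (4.69%), against 2.2% of all features, and none was lower, against 3.43%. Of 4093 features of mean at least 50, which all tested members reach, 127 were higher. The calls were few, and no difference between these shares was tested. The 3 members were Mrpl12 (log2 difference 0.34 ± 0.06 SE, adjusted p = 0.00274), Mrpl16 (0.31 ± 0.08 SE, adjusted p = 0.0253) and Mrpl32 (0.25 ± 0.08 SE, adjusted p = 0.0472). Mrpl32, whose protein is matured by the mitochondrial m-AAA protease, had 423.4, 424.6 and 386.3 normalized counts in OHT+dox libraries against 337.3, 372.3 and 325.7 in OHT libraries. Its dox libraries stood at 380.5, 370.6 and 384.6 and overlapped the OHT libraries. The count was 1 when any of OHT libraries 1 and 3 or OHT+dox libraries 1 and 2 was left out, and 6 without OHT library 2. Features called higher then numbered 55, 65, 81 and 47 in the same order, and 223 without OHT library 2. Over all features 126 were higher and 196 lower, against 232 and 104 with upper-quartile scaling and 201 and 129 with recomputed size factors.

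Between OHT+dox and dox cells 29 members were higher, against 15.3% of all features, and none was lower, against 11.1%. The differences of Mrpl22 (0.83 on the log2 scale, adjusted p = 6.07e-06) and Mrpl16 (0.62, adjusted p = 6e-06) were the largest. This count fell to 17 without dox library 1 and 18 without OHT+dox library 2, and also to 18 with dox libraries 1 and 2 counted as 1, and it was 19 with scaling by the total of recovered reads, where 720 features were higher and 801 lower, against 876 and 635 in the fit reported. The features higher were 703 without dox library 1, 596 without OHT+dox library 2 and 662 with dox libraries 1 and 2 counted as 1. Between OHT and dox cells 12 members were higher, against 14.5% of all features, and none was lower, against 7.26%. This share of the members, 18.8%, was near the share over all features. Mrpl22 (0.55, adjusted p = 0.000655) led here too, and 20 members were called without OHT library 3 and 5 with upper-quartile scaling. Over all features 827 were higher and 415 lower, against 618 and 563 with the total of recovered reads, 523 and 595 with the upper quartile and 561 and 590 with recomputed size factors. Without OHT library 3 these numbers were 780 and 399.

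The interaction, OHT+dox minus OHT minus dox plus mock, asks whether the joint change departs from the sum of the separate changes on the log2 scale. No member and no feature was called (0 of 5715, 0%), with limma trend and with voom weights alike. At an unadjusted p under 0.05 there were 2 members, Mrpl57 (-0.36 ± 0.14 SE) and Mrpl12 (0.19 ± 0.09 SE), both singled out after their values were seen, and 173 features with limma trend and 162 with voom weights. The estimates over the members had a median of -0.02 and ran from -0.36 (Mrps28, SE 0.19) to 0.19 (Mrpl12). A missed threshold with 3 libraries per group does not show that the changes were additive.

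Counts per library could not be solved for 12 members, whose means lay between 240.0 and 704.4. For these only differences between treated groups were computed from the deposited means, with no error and no test, and on recovered members such a difference deviated by at most 0.8 normalized counts. OHT+dox exceeded dox in all 12, OHT exceeded dox in all 12, and OHT+dox exceeded OHT in 10 of 12, the exceptions being Mrpl1 and Mrpl45. Mrps2, of the small subunit and the member of highest mean, was higher in OHT+dox than in OHT cells by 154.3 and than in dox cells by 312.2 normalized counts. Mrpl50, of the large subunit, was higher in OHT+dox than in OHT cells by 105.4 and than in dox cells by 226.3 normalized counts. Among recovered members the same signs held for 60 (OHT+dox over dox), 50 (OHT over dox) and 58 (OHT+dox over OHT) of 64. Over all features tested, 51.5%, 60.6% and 42.8% of the estimates were above 0 in these comparisons.

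Other genes of the pathway were examined as lists, beside shares over all features of 21.3% higher and 23.2% lower in OHT+dox, 15.5% and 11% in OHT, and 5.28% and 6.88% in dox cells. Of the mitoribosomal proteins under other symbols, 4 of 6 could be tested, and Chchd1 (log2 fold change 0.36, adjusted p = 0.0061) and Ict1, also a ribosome-rescue factor (0.25, adjusted p = 0.0396), were higher in OHT+dox than in mock cells. Of genes for assembly of the mitochondrial ribosome 19 of 27 were tested, and 8 were higher and 1 lower in OHT+dox, 8 higher and none lower in OHT, and 3 higher and none lower in dox cells, with medians of 0.15, 0.25 and -0.03. The GTPases Mtg1 (0.86, adjusted p = 4.96e-05) and Gtpbp10 (0.79, adjusted p = 4.4e-06) led in OHT+dox cells, and Mettl15, a ribosomal RNA methyltransferase, was lower (-0.62, adjusted p = 0.0169). Nsun4, which methylates the small subunit RNA, was higher in dox cells by 0.43 (adjusted p = 0.000283) and in OHT+dox cells by 0.41. Of mitochondrial translation factors 9 of 14 were tested, and the elongation factor gene Tsfm was higher in OHT+dox (0.83, adjusted p = 6.66e-06) and in OHT cells (0.57, adjusted p = 0.000989), Ict1 was the other call in OHT+dox, and none was called in dox cells. Tefm, the elongation factor of mitochondrial transcription, was higher in OHT+dox (0.50) and OHT cells (0.46), as 1 and 2 of 3 tested genes of that list were. No row of the table matched a mitochondrially encoded gene.

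Of 18 genes of the mitochondrial and integrated stress response only 3 could be tested. Trib3, a pseudokinase gene induced by ATF4, had 106.0, 90.5 and 122.7 normalized counts in dox libraries and 55.8, 71.1 and 46.2 in mock libraries (log2 fold change 0.89 ± 0.18 SE, adjusted p = 0.003). In OHT libraries it had 36.3, 43.4 and 29.5 (-0.65, adjusted p = 0.0101 against mock) and in OHT+dox libraries 88.7, 96.8 and 90.3 (0.69, adjusted p = 0.00365). Trib3 was thus above mock in both groups given doxycycline and below it with OHT alone. Hspe1, the mitochondrial co-chaperonin, was higher in all treated groups, with log2 fold changes of 0.43 in OHT+dox, 0.32 in OHT and 0.22 in dox cells. Ddit3, a transcription factor of the same response, was lower in OHT+dox (-0.28, adjusted p = 0.00221) and OHT cells (-0.22, adjusted p = 0.0251), and its estimate in dox cells was -0.13 (adjusted p = 0.237). Whether these values bear on those of the members was not tested. Of 81 rows of cytosolic ribosomal proteins only 12 could be tested, and 2 were higher in OHT+dox (median 0.12), 1 in OHT (0.05) and none in dox cells (0.07). These counts do not exceed the shares over all features.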

How the data were processed

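RNA of 12 libraries (3 each of OHT+dox, OHT, dox and mock) was sequenced without poly(A) selection. Per the labels and the submitters' processing notes, reads were processed with TopHat2 2.0.8, SAMtools, featureCounts 1.4.5-p1 and DESeq2 on mm9; no source used here names the annotation. The signal values in the deposited table are the authors' means, for each treatment, over its 3 treated and the 3 mock libraries of counts divided by DESeq2 size factors, written with 10 digits. The other columns hold the authors' fold changes, adjusted p-values and calls and were not used.

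Single-library values were needed for testing, which the table does not list, so that a different unit was met than the design assumed. The step that 1 read adds to a mean gave each library's size factor, and whole reads of the 12 libraries were then solved jointly from the 3 means (Python 3.11.15, NumPy 2.4.6, Numba 0.67.0). A gene was used where the best solution held a share of at least 0.99, as for 5748 of 12168 genes of mean above 10 (47.2%). With 1 digit of the means removed, 655 of 655 genes of mean 60 to 100 reached that share and were solved as before. Of 900 genes of mean 100 to 170, chosen for a near-certain solution with all digits, only 28 reached it. These 28 were solved as before. No such check was made on real genes of mean above 170. Among the genes used, 2.89 wrong ones were expected. The solution gives libraries of a group no replicate number.

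The authors' median-of-ratios size factors, linked through the shared mock libraries, replaced the planned recomputation over all genes. Log2(normalized count + 0.5) was fitted with limma 3.58.1 (R 4.3.3, trend) on all 12 libraries with 1 mean per group, for features of mean at least 10, and p-values were adjusted (Benjamini-Hochberg) over 5715 features. Fold changes are on this scale. The fit was tested on simulated data with 200 changed genes. Alternatives were other scalings, pseudocounts, filters, voom weights, 2-group fits, a fold minimum and each library left out; recomputed size factors, shares of 0.95 and of all but 0.0001, means up to 300 and dox libraries 1 and 2 counted as 1 were added after seeing the data.

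Members and gene lists were chosen with earlier results of these data known. Named members were the 8 with the largest called change in OHT+dox and the 3 in dox, those called lower, the 4 with the smallest change, the 3 highest and 3 lowest by mean, and those called in OHT+dox against OHT or in the interaction. Exon lengths and overlaps came from GENCODE M21 and promoters from RefSeq, both on GRCm38, whereas the reads were aligned to mm9. Promoters of Mrpl4, Mrpl13, Mrpl15, Mrpl19, Mrpl38, Mrpl54, Mrps28, Mrps34 and Mrps35 were not used here. Figures were drawn with matplotlib 3.10.9.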

Additional observations from a re-analysis of the deposited data

How the results depend on the processing

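No paired analysis was possible because the recovered libraries carry no replicate number. Recovery limits the members tested: leaving at most a share of 0.0001 to other solutions kept 42 and means up to 300 kept 37, with 33 and 27 of them higher in OHT+dox, 23 and 16 in OHT and 6 and 5 in dox than in mock cells, 0 and 0 in OHT+dox against OHT, 16 and 12 in OHT+dox against dox, and 4 and 3 in OHT against dox. Over all features, 823 of 4520 and 866 of 4721 were higher in OHT+dox, 602 and 630 in OHT, and 172 and 186 in dox than in mock cells. They were 67 and 67 in OHT+dox against OHT, 598 and 613 in OHT+dox against dox, and 617 and 633 in OHT against dox. With a fold minimum of 0.5 on the log2 scale, 15, 7 and 0 members were higher in OHT+dox, OHT and dox than in mock cells. Of all 5715 features, 1581, 807 and 327 passed this minimum in either direction. The dox count was 7 with voom weights, 17 with recomputed size factors and 5 with dox libraries 1 and 2 counted as 1, and Mrps6 became 1 member called lower with a mean of at least 50, in the fit of only these groups and under the stricter share. OHT+dox against OHT gave 1 without a filter and 1 in the fit of only these groups, where 101 of 11918 and 62 of 5671 features were higher. OHT+dox against dox gave 19 with scaling by total reads and 18 with the dox libraries counted as 1. OHT against dox gave 5 with the upper quartile, and 1 member, Mrpl32, was lower with total reads. Leaving out each library in turn gave 40 to 49 members higher in OHT+dox, 23 to 40 in OHT and 4 to 7 in dox than in mock cells, 1 to 6 in OHT+dox against OHT, 17 to 31 in OHT+dox against dox and 8 to 20 in OHT against dox. Over all features, 976 to 1218, 597 to 892 and 177 to 213 were then higher in OHT+dox, OHT and dox than in mock cells. They were 47 to 223 in OHT+dox against OHT, 596 to 886 in OHT+dox against dox and 566 to 780 in OHT against dox. Some of these fits hold fewer members or libraries and others hold all of them, and the cause of the changes was not tested.

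Without each library in turn, the median log2 fold change over mock of large and small subunit genes ran from 0.32 to 0.41 and from 0.34 to 0.43 in OHT+dox, from 0.21 to 0.30 and from 0.20 to 0.33 in OHT, and from 0.10 to 0.14 and from 0.10 to 0.18 in dox cells. Over the 15, 15 and 16 alternative fits of the comparisons with mock, 38 of the 50 members called in OHT+dox, 21 of the 35 in OHT and 3 of the 11 in dox were called in every one. The same count was not made over all features, so that these numbers do not tell members from other called features. Of 510 values of named members under alternatives, 470 kept their call, 35 lost it, 5 gained one and 0 changed sign past the threshold. The errors of the 3 members of lowest mean, Mrps34, Mrpl47 and Mrps28, exceeded 0.13 on the log2 scale. So did that of Mrpl39 (0.144), a member of higher mean, and what set the size of these errors was not tested.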
